A study of Mus musculus with 6 samples.

Results

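miR-191 and miR-425 are made from a pair of hairpins that lie next to each other on mouse chromosome 9, and they were followed here as 4 mature miRNAs in the liver of mice on high-fat diet. The entries of the 5p and the 3p strand of each of the 2 hairpins are 4 of the 1039 entries of the deposited table. They were chosen by their name and by the place of their hairpins within 1000 bp of each other, and from the values of the J and M groups, since miR-191-5p and miR-425-5p were already known to be lower in the J group in these libraries. The differences of the members between the groups are therefore given as a description. Where a member is said to pass the thresholds of the study, which include an unadjusted p, this places it among the other miRNAs and is not a test of it. All 4 entries had a mean above 1 RPM in both groups (RPM being the reads of a miRNA scaled to the same total of miRNA reads in each library), and so were among the 548 miRNAs that entered the fit.

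Liver small RNA was sequenced from 6 wild-type ICR mice, an outbred stock, aged 30 weeks, with 1 library per mouse. Mice of both groups received a high-fat diet from the start. After 12 weeks, 3 mice received JTXK granule by gavage for 8 weeks (J group) and 3 mice received sterile water (M group). JTXK, or Jiang Tang Xiao Ke, is a Chinese herbal formula given for diabetes. The comparison asks how liver miRNA levels differ between mice on the diet with and without the granule, and mice without the diet were not analysed here.

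A miRNA hairpin is cut from a longer transcript by Drosha and then by Dicer, which leaves a duplex of a 5p and a 3p strand. One strand is kept in an Argonaute protein and finds its target messages mainly through the seed, bases 2 to 8, while the other strand is usually degraded. Hairpins cut from the same transcript start from the same amount of RNA, but their mature forms can end at different levels, since cutting and decay act on each of them. miR-191-5p is found in many tissues and cell types, for which reason it has been used as a reference in qPCR. miR-425-5p has been linked to PI3K/AKT and NF-κB signalling.

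The 4 mature sequences are shown because the seed sets which messages each of them can pair with. They are the RefSeq sequences on GRCm38.p6, written 5′ to 3′ with the seed in capitals.
mmu-miR-191-5p: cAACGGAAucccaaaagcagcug
mmu-miR-191-3p: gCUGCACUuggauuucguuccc
mmu-miR-425-5p: aAUGACACgaucacucccguuga
mmu-miR-425-3p: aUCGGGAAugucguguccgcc
The 4 seeds are all different, so these miRNAs form a family by position and not by sequence. Among 1738 mature mouse sequences of RefSeq, the seed of miR-425-5p is also held by 1 other, mmu-miR-489-3p, which has no entry in the table of the 6 libraries. The seeds of the other 3 members are held by no other sequence of that set. Each of the 4 mature sequences comes from 1 gene, so their reads are not shared with an identical copy elsewhere.

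The hairpins, with both mature arms in capitals, show how the strands face each other.
Mir191: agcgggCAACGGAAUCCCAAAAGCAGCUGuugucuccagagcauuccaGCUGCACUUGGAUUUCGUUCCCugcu
Mir425: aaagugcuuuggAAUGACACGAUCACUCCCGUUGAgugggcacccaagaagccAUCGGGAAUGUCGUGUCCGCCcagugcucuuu
Mir191 lies at chr9:108568319-108568392 and Mir425 at chr9:108568777-108568861, both on the plus strand of GRCm38, with 384 bp between them. In the fold of lowest free energy, 17 base pairs join the arms of miR-191 (1 of them G-U) and 14 join those of miR-425. The free energy of that fold was -35 kcal/mol for the 74-base hairpin of Mir191 and -31.7 kcal/mol for the 85-base hairpin of Mir425. In the GENCODE annotation both hairpins lie in the single exon of a transcript of the long noncoding RNA gene 4833445I07Rik (chromosome 9, 108567533 to 108569174). In a shorter transcript of that gene Mir191 lies between exon 1 and exon 2, and Mir425 begins just past the end of exon 2. Ndufaf3 lies upstream on the minus strand, and Dalrd3 starts downstream on the plus strand at 108569886. The RefSeq gene of Dalrd3 instead spans 108567484 to 108572773 and holds both hairpins. A further miRNA gene of GENCODE, Gm24083, lies opposite Mir191 on the minus strand, and whether strand was used in counting is not given in the sources used here.

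The libraries held 2626353 to 4314134 miRNA reads, and a single read was worth 0.232 to 0.381 RPM. M group replicate 1 stood apart from the other libraries, with 30 miRNAs that exceeded all other libraries by 4-fold or more. The remaining libraries had 0 or 1 such miRNA each. The sample label of M group replicate 1 also differs from all others in the number after the group letters. What that number means is not given in the sources used here. Over the 548 miRNAs, the median difference J minus M of log2(RPM + 1) was -0.13, and 323 miRNAs (58.9%) were below 0. The median was -0.087 without M group replicate 1, -0.056 without J group replicate 1 and -0.20 without J group replicate 3. The thresholds of the study (an absolute log2 difference above 0.3 with an unadjusted p under 0.05, here from limma) were passed by 29 miRNAs. None of the 548 had an adjusted p under 0.05 in limma or in edgeR's quasi-likelihood test, while 2 had an adjusted p under 0.05 in DESeq2. An unadjusted p under 0.05 was found for 29 miRNAs in limma, 45 in edgeR and 36 in DESeq2.

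miR-191-5p was by far the most abundant member. It stood at 2674, 2281 and 3224 RPM in J group replicates 1 to 3, and at 7260, 7589 and 4262 RPM in M group replicates 1 to 3. All J libraries lay below all M libraries, and the lowest M library, replicate 3, was 1.32-fold above the highest J library. The means were 2727 ± 474 RPM for J and 6370.4 ± 1833 RPM for M (SD, n = 3 each), so the J mean was 0.428 of the M mean. On the log2(RPM + 1) scale the difference J minus M was -1.19 (standard error 0.26), or -1.06 relative to the median of all miRNAs tested (-1.33 to -0.91 with each library left out). Its place in the order of abundance was 35, 39 and 35 in J-group mice against 20, 22 and 30 in M-group mice. These values rest on 8172 to 25885 reads per library. Counting error was small beside the spread between mice, with 95% Wilson intervals of 2626 to 2723 RPM in J group replicate 1 and 4201 to 4324 RPM in M group replicate 3. PCR duplicates could not be recognised, so these intervals describe the error of counting and no other.

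miR-425-5p was at 55.6, 58.3 and 58.5 RPM in J-group mice against 102.8, 86.8 and 88.0 RPM in M-group mice. The J libraries were close together and all lay below the M libraries, the lowest of which was 1.48-fold above the highest J library. The means were 57.5 ± 1.60 RPM for J and 92.5 ± 8.92 RPM for M (SD, n = 3 each), and the J mean was 0.621 of the M mean. On the log2(RPM + 1) scale the difference was -0.67 (standard error 0.21), or -0.54 relative to the median of all miRNAs (-0.59 to -0.49 with each library left out). The coefficient of variation of the 3 J libraries was 2.78%. Their Wilson intervals of 49.0 to 63.1, 50.9 to 66.8 and 50.2 to 68.1 RPM each hold all 3 J values, so the differences among these mice were not detectable at 164 to 240 reads. The SD within groups was 0.099 on the log2 scale, and 1.46% of the miRNAs tested had a smaller one, while miR-191-5p had 0.37 and the median was 0.44.

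The 3p arms were rare. miR-191-3p had 19, 9 and 6 reads in J-group mice against 17, 19 and 12 reads in M-group mice, or 4.40, 2.51 and 2.14 RPM against 6.47, 5.57 and 2.79 RPM. The groups overlapped, because J group replicate 1 lay above M group replicate 3. The means were 3.02 ± 1.21 and 4.95 ± 1.92 RPM (SD, n = 3 each), and the log2(RPM + 1) difference of -0.55 (standard error 0.39) did not pass the thresholds. It was -0.35 without M group replicate 1 and -0.84 without M group replicate 3. The Wilson intervals of J group replicate 3 (0.980 to 4.67 RPM) and M group replicate 3 (1.60 to 4.88 RPM) lay largely over each other, so that a difference of their size was not detectable at this depth.

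miR-425-3p had 23, 27 and 25 reads in J-group mice against 40, 41 and 38 reads in M-group mice, which is 5.33, 7.54 and 8.91 RPM against 15.2, 12.0 and 8.85 RPM. The groups overlapped by 0.066 RPM, between J group replicate 3 and M group replicate 3, whose Wilson intervals were 6.04 to 13.2 and 6.45 to 12.1 RPM. The means were 7.26 ± 1.81 and 12.0 ± 3.19 RPM (SD, n = 3 each), and the log2(RPM + 1) difference was -0.65 (standard error 0.33). It was close in size to that of the 5p arm of its hairpin and did not pass the thresholds. The closeness depends on the setting. With 10 RPM added in place of 1, the 3p arm was at -0.35 and the 5p arm at -0.60, and without J group replicate 1 they were at -0.47 and -0.65.

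**Figure D1:**
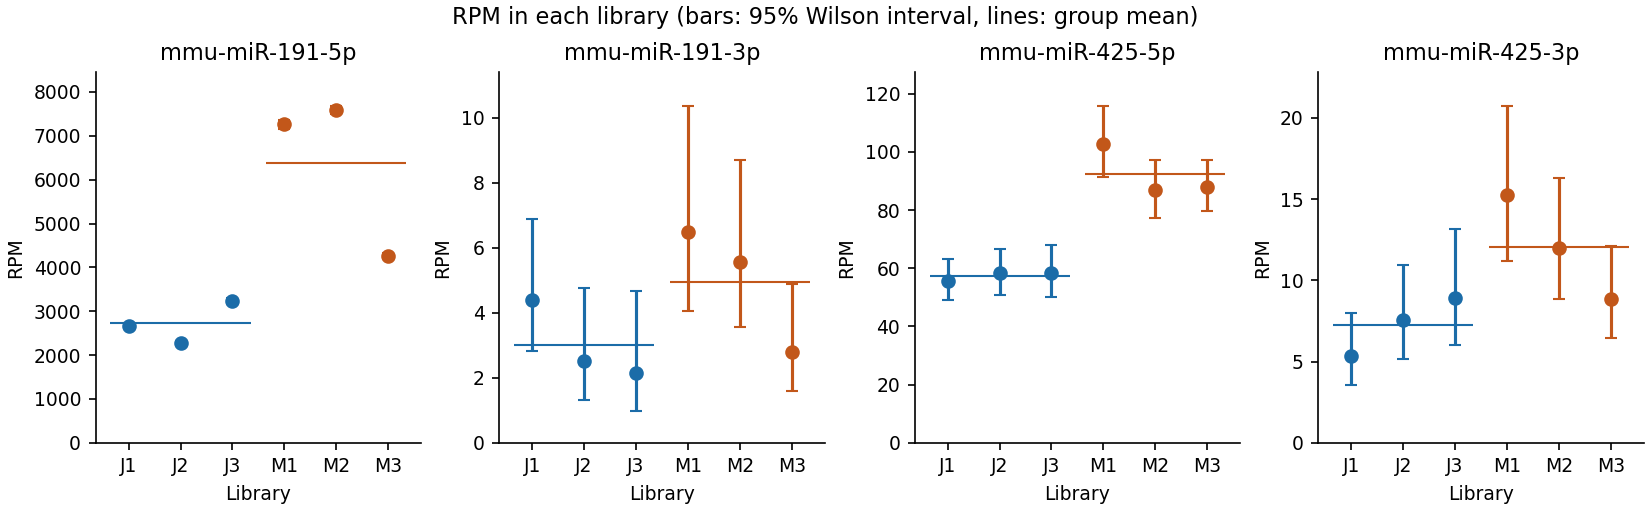
RPM of the 4 mature miRNAs in each library of the J group (J1 to J3) and the M group (M1 to M3), each panel on its own linear axis from 0. Points are libraries, bars are 95% Wilson intervals and lines are group means. The J libraries lie below the M libraries for both 5p arms (at most 3224 against at least 4262 RPM, and at most 58.5 against at least 86.8 RPM), and the groups overlap for both 3p arms.

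Of the 4 members, 2 passed the thresholds with a lower level in the J group, miR-191-5p and miR-425-5p, where 3.83% of all miRNAs tested did so. The same 2 had every J library below every M library, as did 9.31% of all miRNAs tested. Among miRNAs higher in the J group, for which the members gave 0, the shares over all miRNAs were 1.46% past the thresholds and 4.2% without overlap. The members were chosen with these values known, so nothing is read from their count. Under quantile normalization miR-425-5p, at -0.43, no longer passed, which left 1 member. Without M group replicate 1 both 5p arms still lay lower in every J library and passed, and both 3p arms still overlapped.

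Both hairpins gave mainly reads of the 5p strand, but to very different degrees. There were 607 to 1525.8 reads of miR-191-5p for each read of miR-191-3p, while miR-425-5p had only 6.56 to 10.4 reads for each read of miR-425-3p. The 3p strand made up 0.164%, 0.110% and 0.0663% of the reads of miR-191 in J-group mice against 0.0891%, 0.0733% and 0.0655% in M-group mice. Of the reads of miR-425 it made up 8.75%, 11.4% and 13.2% in J-group mice against 12.9%, 12.2% and 9.13% in M-group mice. The groups overlapped in both hairpins, and the lowest 3p share of miR-425 lay far above the highest of miR-191.

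The ratio of the strands overlapped between the groups in both hairpins. For miR-425, the log2 ratio of 5p to 3p reads (0.5 read added to each) was 2.99 ± 0.34 in the J group and 2.96 ± 0.30 in the M group (SD, n = 3 each), a difference of 0.03 (standard error 0.26). It was -0.08 without M group replicate 1 and -0.15 without J group replicate 1. For miR-191 the log2 ratio was 9.80 ± 0.62 and 10.33 ± 0.22, a difference of -0.53 (standard error 0.38) that rests on 6 to 19 reads of the 3p strand per library. It was -0.23 without J group replicate 1 and -0.85 without J group replicate 3. Both differences were smaller than the SD between the J libraries.

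**Figure D2:**
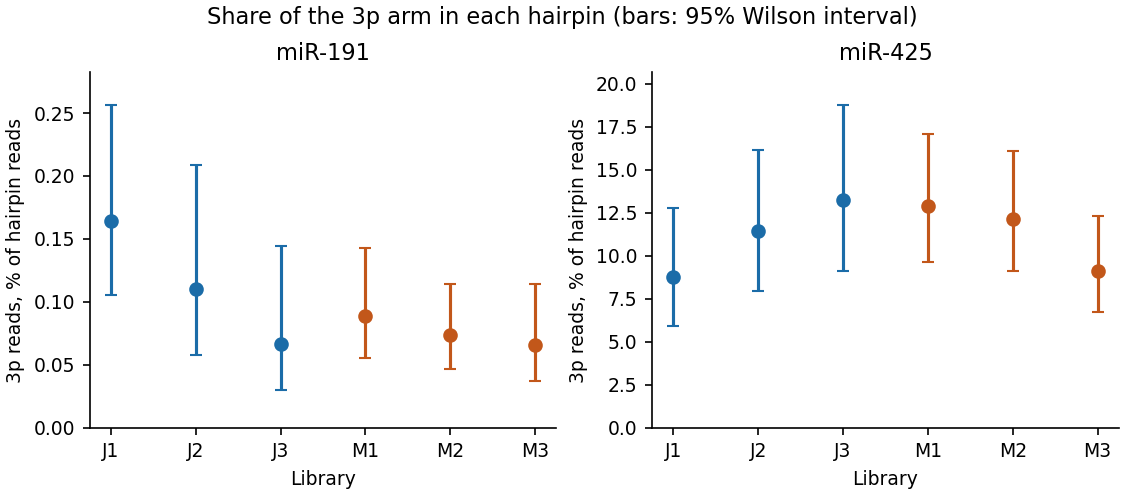
Reads of the 3p strand as a percentage of all mature reads of its hairpin, per library of the J group (J1 to J3) and the M group (M1 to M3), with 95% Wilson intervals as bars and a linear axis from 0 in each panel. The share is at most 0.164% in miR-191 and lies between 8.75% and 13.2% in miR-425, with overlapping groups in both.

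Against other hairpins of these livers, miR-191 was among the most one-sided and miR-425 was less one-sided than most. Of 120 hairpins with both arms in the table, neither shared with another gene, and at least 100 reads in all, 62 had the 5p arm as the abundant one and 58 the 3p arm, and the abundant arm held a median of 97.0% of the reads. It held 99.9% in miR-191, place 11 of the 120 from the most one-sided, and 88.9% in miR-425, place 86. The absolute J minus M difference of the log2 arm ratio had a median of 0.43 over these hairpins. miR-191, with 0.53, took place 47 from the largest and miR-425, with 0.03, place 113. The abundant arm began with U in 63 hairpins (52.5%), with A in 30, with C in 18 and with G in 9. U is the base that Argonaute binds most readily at the 5′ end, and neither member begins with it, since miR-191-5p starts with C and miR-425-5p with A.

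Although they lie 458 bp apart from start to start, the hairpins gave very different numbers of mature reads. How well each sequence was captured in the libraries was not measured, so ratios between different miRNAs are ratios of reads. There were 48.1, 39.1 and 55.2 reads of miR-191-5p for each read of miR-425-5p in J-group mice against 70.6, 87.4 and 48.4 in M-group mice. J group replicates 2 and 1 lay below all M libraries, but J group replicate 3 lay above M group replicate 3, so the groups overlapped. The log2 ratio was 5.55 ± 0.25 in the J group and 6.06 ± 0.43 in the M group (SD, n = 3 each), a difference of -0.51 (standard error 0.29). It was -0.32 without M group replicate 2 and -0.74 without M group replicate 3. In the M group, replicates 2 and 3 differed in miR-191-5p (7589 and 4262 RPM), while their miR-425-5p (86.8 and 88.0 RPM) could not be told apart by counting error.

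The 3p strands gave another picture, with fewer reads of miR-191-3p than of miR-425-3p in every library. The ratio was 0.826, 0.333 and 0.240 in J-group mice against 0.425, 0.463 and 0.316 in M-group mice. The J libraries lay on both sides of the M libraries, and the log2 difference of 0.05 (standard error 0.54) changed sign without J group replicate 1 (-0.44) or M group replicate 3 (-0.11). The order of the hairpins thus turned with the strand compared.

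Most neighbouring hairpins elsewhere in the genome were closer in reads. Of 32 pairs of neighbouring hairpins within 1000 bp on one strand, this one included, each measured by an abundant arm that comes from no other gene, 22 had differences J minus M of the same sign. The median fold between the levels of a pair was 3.13. For miR-191-5p and miR-425-5p it was 60.6, place 2 from the largest, after miR-503-3p and miR-322-3p with 70.7. The differences J minus M of a pair lay a median of 0.42 apart on the log2(RPM + 1) scale. Those of miR-191-5p and miR-425-5p lay 0.52 apart, place 12 of the 32. This distance was 0.33 without M group replicate 2 and 0.75 without M group replicate 3, so it depends on single libraries. The pair just before it in that order was miR-20b-5p with miR-18b-5p (0.52), and the pair just after it was miR-503-3p with miR-322-3p (0.51). Some hairpins enter more than 1 pair. The pairs at places 1, 6 and 7 hold miR-679-5p (mean 0.732 RPM) or miR-292b-5p (mean 0.865 RPM), which passed the filter through 1 group only. Their differences were partly set by the filter, and the order, the median of 0.42 and the count of 22 include them, so nothing is read from place 12.

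**Figure D3:**
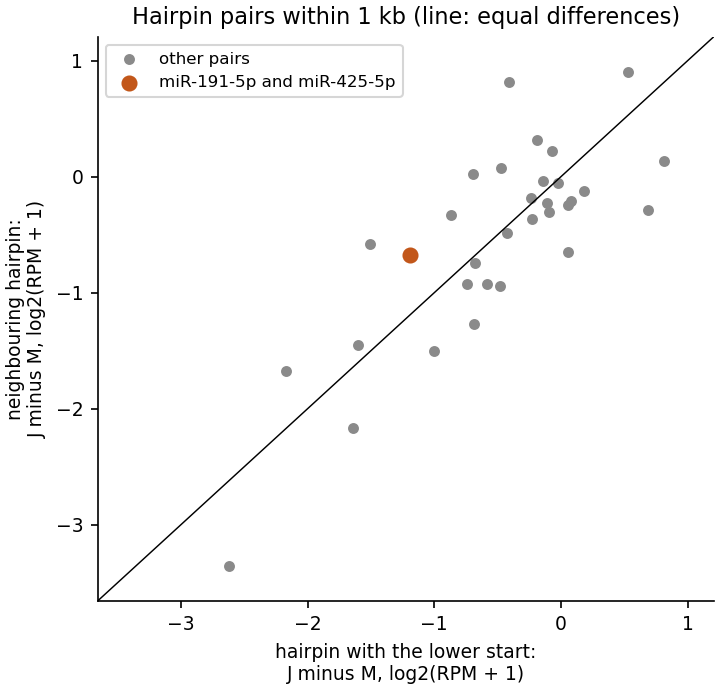
J minus M difference of log2(RPM + 1) for 32 pairs of neighbouring hairpins, with the hairpin of lower start coordinate on the x axis and its neighbour on the y axis. Each point is a pair measured by its more abundant arms, and the line marks equal differences. The pair of miR-191-5p (-1.19) and miR-425-5p (-0.67) lies 0.52 from equal differences (0.33 without M group replicate 2), and 22 of the 32 pairs have the same sign in both hairpins.

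miR-191-5p was next set beside 10 other miRNAs that are used as references in qPCR. All 10 had a difference below 0, with a median of -0.39 and a range from -0.96 to -0.15. Without M group replicate 1 the median was -0.23 and 9 of the 10 were below 0. Of the 10, 2 passed the thresholds with a lower level in the J group and 0 with a higher one, while 3.83% and 1.46% of all miRNAs tested passed in these directions. Without M group replicate 2 it was 4 of the 10, with miR-93-5p and miR-25-3p added. The 2 past the thresholds with all libraries were miR-186-5p, from an intron of Zranb2 (148 ± 19.3 against 288 ± 43.2 RPM, SD, n = 3 each, log2 difference -0.96 with standard error 0.22), and let-7a-5p, of a family known for its part in differentiation (7328 ± 529 against 10660 ± 1133 RPM, -0.54 with standard error 0.14). Every J library was below every M library in 3 of the 10, these and miR-423-5p (-0.55), against 9.31% of all miRNAs. With a library left out, which leaves fewer libraries to overlap, it was 3 to 7 of the 10, with 7 without M group replicate 2. The summed level of the list was 26691 to 30472 RPM in J-group mice against 33917 to 37712 RPM in M-group mice, without overlap.

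Relative to that sum, the J libraries still lay wholly below the M libraries for both 5p members. miR-191-5p had 0.0762 to 0.106 reads per read of the list in J-group mice against 0.126 to 0.201 in M-group mice. The log2 ratio was -3.42 ± 0.25 and -2.55 ± 0.38 (SD, n = 3 each), a difference of -0.87 (standard error 0.26). miR-425-5p had 0.00192 to 0.00209 reads per read of the list in J-group mice against 0.00231 to 0.00276 in M-group mice, a log2 difference of -0.36 (standard error 0.085). These ratios are free of the total reads of a library, but they contain the values by which the members were chosen. The sum is led by a few miRNAs. Of its mean of 29033 RPM in J-group mice, miR-26a-5p gave 14724 and let-7a-5p, which itself passed the thresholds, 7328. With the geometric mean of the list in place of the sum, the differences were smaller, at -0.77 for miR-191-5p and -0.25 for miR-425-5p. No share of all miRNAs without overlap is given for such ratios.

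**Figure D4:**
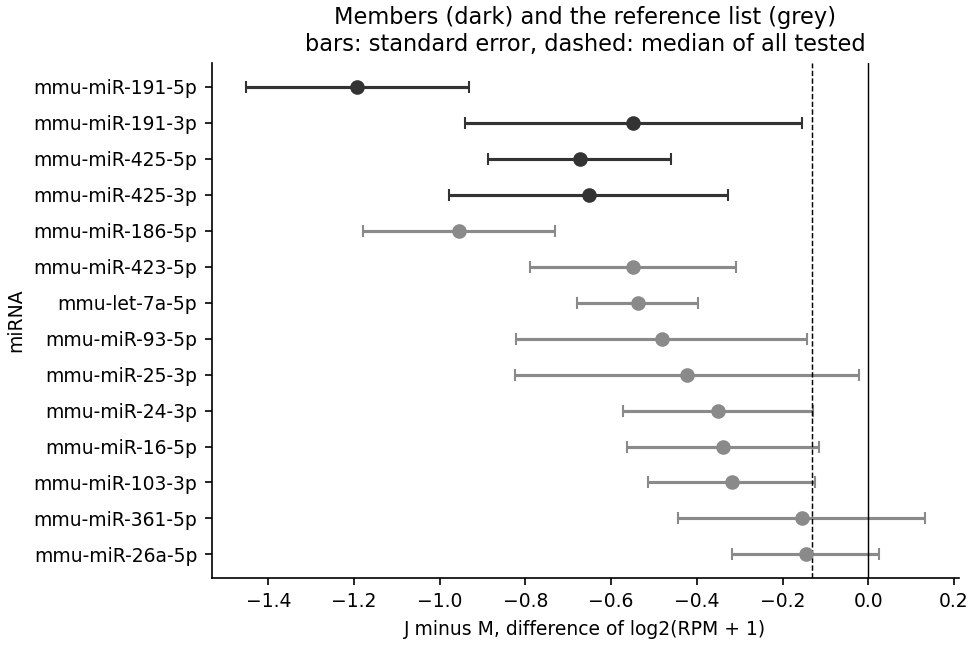
J minus M difference of log2(RPM + 1) on the x axis for the 4 members (dark points) and the 10 other reference miRNAs (grey points), with standard errors from limma as bars. The dashed line is the median of all 548 miRNAs tested (-0.13). miR-191-5p lies at -1.19, and all 10 reference miRNAs lie between -0.96 and -0.15.

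**Figure D5:**
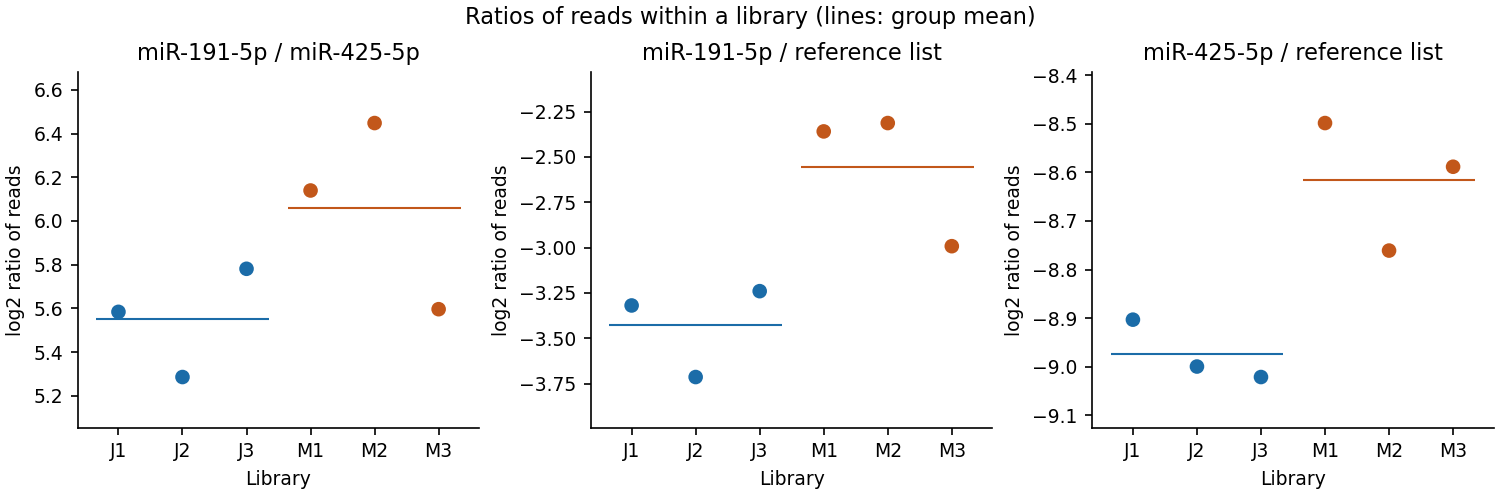
Log2 ratio of reads per library, for miR-191-5p over miR-425-5p and for each of them over the summed reference list, in the J group (J1 to J3) and the M group (M1 to M3). Points are libraries and lines are group means. J group replicate 3 lies above M group replicate 3 in the ratio of the members to each other, while the J libraries lie below all M libraries in both ratios to the list.

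miR-191 and miR-425 are made in many cell types, so lists of miRNAs for its cell types were read in the same libraries. In bulk tissue, fewer cells of a type and less RNA per cell cannot be told apart. The hepatocyte list, led by miR-122-5p, was abundant in all libraries, at 329507 to 378882 RPM in the J group and 333768 to 380650 RPM in the M group. Of its 5 members none passed the thresholds by limma, and the median difference was -0.00 (-0.072 to 0.23 with each library left out). The J libraries lay wholly below the M libraries in miR-122-5p (-0.12) and wholly above them in miR-192-5p (0.28), against 9.31% and 4.2% of all miRNAs tested. The gap in miR-122-5p was narrow, from 232872 RPM in J group replicate 2 to 233362 RPM in M group replicate 3. Without M group replicate 2, miR-192-5p passed (0.34) and miR-122-5p was at -0.061. Without J group replicate 1, miR-122-5p was at -0.067. No hepatocyte marker was at 0 in any library.

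In the list of blood-derived immune cells, 2 of the 7 miRNAs passed the thresholds with a lower level in the J group, beside 3.83% of all miRNAs tested. These were miR-146a-5p, which NF-κB induces (236, 225 and 262 RPM in the J libraries, 1798, 845 and 384 RPM in M-group mice), and miR-342-3p (185, 58.6 and 242 RPM against 554, 665 and 304 RPM), both at -1.79. Every J library was below every M library in both, beside 9.31% of all miRNAs, and both still passed without M group replicate 1. miR-342-3p was at -1.18 without J group replicate 2. The other 5 overlapped between the groups with all libraries. With a library left out, which leaves fewer libraries to overlap, 2 to 5 of the 7 were lower in every J library, with 5 without J group replicate 3. The count past the thresholds was 4 without M group replicate 2, with both strands of miR-142a added, and 3 without J group replicate 3, with miR-155-5p added. All 7 differences were below 0 with a median of -1.12, but without M group replicate 1 the median was -0.50 and 6 of the 7 were below 0. miR-142a-5p was at -1.12 with that library and at -0.38 without it. The summed level was 988 to 1370 RPM in J-group mice against 6579, 2306 and 1768 RPM in M group replicates 1 to 3, so that the groups did not overlap with or without replicate 1. Of the 6579 RPM in replicate 1, 3709 came from miR-142a-5p, a miRNA of blood cells. No member of the list was at 0 in any library, and its part in the levels of miR-191 and miR-425 was not tested.

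The stromal list, with miRNAs of stellate and smooth muscle cells, had all its measured miRNAs below 0. Of its 4 miRNAs in the table, 3 passed the thresholds with a lower level, miR-199a-5p (-0.63), miR-214-3p (-0.55) and miR-145a-5p (-0.46), each with every J library below every M library, beside 3.83% past and 9.31% without overlap among all miRNAs tested. With any library left out miR-214-3p no longer passed, and miR-145a-5p did not pass without J group replicate 2 or M group replicate 3. The other, miR-143-3p, had -0.41 with overlapping groups (-0.17 without M group replicate 1 and -0.27 without J group replicate 2). The sums overlapped by a narrow margin, with 12582 to 16890 RPM in the J group and 16765 to 25242 RPM in the M group. The part of these cells in the levels of the members was not tested.

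The sums of the other lists overlapped between the groups. The bile duct list of 5 miRNAs had a median of -0.68 and sums of 950 to 2379 RPM in the J group and 1203 to 4298 RPM in the M group. Without M group replicate 1, which held the 4298 RPM, the median was -0.24 and the highest M sum 2341 RPM. The median was -1.17 without M group replicate 3 and -0.45 without J group replicate 1. None of the 5 passed by limma with all libraries, while miR-200b-3p and miR-429-3p passed without M group replicate 3 and miR-200b-3p without J group replicate 3. Past the thresholds with a lower level were 3.83% of all miRNAs tested. Of the 5, 1, miR-200c-3p, was lower in every J library (-0.30), beside 9.31% of all miRNAs, and it was 4 of the 5 without J group replicate 3 and 3 without M group replicate 3. The 3 red blood cell miRNAs in the table had a median of -0.12, which ranged from -0.63 (without M group replicate 2) to 0.47 (without M group replicate 3, where miR-144-3p passed with a higher level in the J group). They summed to 4362 to 6308 RPM in the J group and 2581 to 9886 RPM in the M group. miR-126a-3p, the only miRNA of the endothelial list found in the table, had 4166 to 6718 RPM and 4486 to 5579 RPM. Its difference of 0.09 ranged from -0.10 (without J group replicate 2) to 0.25 (without J group replicate 1).

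Likeness of pattern was measured as the root mean square difference of log2(RPM + 1) over the 6 libraries, after each miRNA was centred on its mean. It includes the difference between the groups by which the members were chosen, so it is a description. For miR-191-5p the 5 most alike were miR-183-3p (0.21), miR-186-5p (0.25), miR-146b-5p (0.27), miR-3071-3p (0.28) and miR-362-5p (0.31), where the median over all miRNAs was 0.77. miR-183-3p and miR-3071-3p rest on at most 8 and 5 reads in any library. Both passed the filter only through the M group (their J means were 0.485 and 0.196 RPM), so they had to be lower in the J group, and nothing is read from their place. miR-146b-5p, another miRNA that NF-κB signalling can induce, had 143, 81.0 and 140 RPM in J-group mice against 442, 355 and 260 RPM in M-group mice. As in miR-191-5p, J group replicate 2 and M group replicate 3 were the lowest of their groups. The highest differed, being J group replicate 1 and M group replicate 1 for miR-146b-5p but J group replicate 3 and M group replicate 2 for miR-191-5p. miR-186-5p was at 126, 158 and 160 RPM against 313, 313 and 238 RPM.

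For miR-425-5p the 5 most alike were miR-199a-5p (0.096), let-7d-5p (0.099), miR-148b-3p (0.12), miR-598-3p (0.13) and miR-214-3p (0.14), with a median over all miRNAs of 0.51. miR-199a-5p and miR-214-3p belong to the stromal list. Like miR-425-5p, miR-199a-5p varied little within the groups, with 723, 638 and 663 RPM against 1078, 994 and 1050 RPM. let-7d-5p was at 1036, 1149 and 1145 RPM against 1820, 1851 and 1529 RPM.

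The members were not the nearest to each other. In the order of likeness to miR-191-5p, miR-425-3p took place 10 (0.36), miR-425-5p place 13 (0.39) and miR-191-3p place 30 (0.45). In that to miR-425-5p, miR-425-3p took place 34 (0.23), miR-191-3p place 126 (0.38) and miR-191-5p place 135 (0.39). The 3p arms carry counting error at 6 to 41 reads per library, which limits how alike they can be to any miRNA.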

How the data were processed

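Liver RNA of 3 mice per group was made into libraries with the NEBNext small RNA kit. The authors removed unusable reads, matched the unique ones to Rfam and miRBase, and deposited RPM, in which each miRNA's reads are divided by the library's total of miRNA reads. The processing notes of the labels name mm9, and the aligner and mismatch rule are not given in the sources used here. All values were whole multiples of a single read (within 0.01 read), so reads were recovered. An entry was named by the text before its first suffix mark, since the sources do not state what the suffix means.

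J and M were compared by limma 3.58.1 (R 4.3.3, two-sided, variance trend) applied to log2(RPM + 1) of miRNAs with a mean above 1 RPM in a group. The step was tested on simulated data. Ratios used reads plus 0.5, with standard errors from the group SDs. edgeR 4.0.16, DESeq2 1.42.0, other scalings, pseudocounts (0.1, 10), filters, a replicate term and each library left out were alternatives. Folds were computed by RNAfold 2.7.2 on RefSeq hairpins. Wilson intervals are at 95%.

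The members and lists were chosen with earlier results of these data known. The text names the members, the 5 miRNAs most alike to each abundant 5p arm, the reference and cell type lists, adjacent hairpin pairs and miRNAs that share a seed.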

Additional observations from a re-analysis of the deposited data

How the results depend on the processing

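miR-191-5p was below 0 and past the thresholds under all 16 alternatives tried (-1.46 to -1.02), and -1.46 to -1.04 with each library left out. miR-425-5p stayed below 0 throughout (-0.72 to -0.60 with each library left out), but was -0.57 with median-of-ratios scaling and with DESeq2, and -0.43 with quantile normalization, where it no longer passed and 1 member was left past the thresholds. Quantile normalization also moved the median of all miRNAs from -0.13 to 0.08, and relative to that median miR-425-5p was -0.51 (against -0.54) and miR-191-5p -1.10 (against -1.06). miR-191-3p ranged from -0.84 to -0.19 and miR-425-3p from -0.84 to -0.35. The count of 29 miRNAs past the thresholds became 45 with edgeR (27 lower in the J group) and 21 to 46 with a library left out, 46 without M group replicate 2 (39 lower). It was 30 with median-of-ratios scaling (13 lower) and 31 with quantile normalization (11 lower), against 21 lower of 29. With a library left out, the arm ratio of miR-425 ranged from -0.15 to 0.20, below 0 without J group replicate 1 (-0.15), M group replicate 1 (-0.08) or M group replicate 2 (-0.03), and the ratio of miR-191-3p to miR-425-3p from -0.44 to 0.41. Lists with a library left out were added after the values were seen. The median of the hepatocyte list (-0.00) ranged from -0.072 to 0.23, above 0 without J group replicates 1 or 3 or M group replicates 1 or 2. The endothelial value (0.09) ranged from -0.10 (without J group replicate 2) to 0.25, and the red blood cell median (-0.12) from -0.63 (without M group replicate 2) to 0.47 (without M group replicate 3). The cause was not tested. No pairing of mice by replicate number was seen (correlations of deviations 0.0453, 0.0584 and -0.00587), and the labels name none. With a replicate block miR-191-5p was -1.19 (standard error 0.29) and 27 miRNAs passed. Depth limits the 3p arms.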
